A study of Mus musculus with 4 samples.

Results

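Endothelial and mural cell genes were examined in the mouse optic nerve, the tract of retinal ganglion cell axons, which is supplied by small vessels and wrapped in a meningeal sheath. The 35 genes were taken from a list of 21 endothelial genes, including genes of the blood-brain barrier, and 14 genes of mural cells, and all 35 symbols were found among the 55401 genes of the tables. Endothelial cells line the vessel wall, where their junctions, transporters and receptors form a barrier that is also found in the vessels of the optic nerve. Mural cells lie on the outside of that wall: pericytes on capillaries, which depend on platelet-derived growth factor signals from the endothelium, and smooth muscle cells on arterioles, which hold the contractile proteins.

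The study compared optic nerves with the genotype Dor WT (2 libraries) and Dor cKO, a conditional knockout (2 libraries). Both groups share the tissue and the protocol. The sources used here gave no age, sex or strain, no number of animals behind a library, and no Cre driver for the knockout. Only the wild-type table names hold a label resembling a postnatal day, so a difference in age or batch between the groups cannot be told apart from genotype. Nothing states that the libraries of a group came from separate animals, so p-values measure the spread between these libraries, which may be technical. Libraries held between 17263830 and 21595832 expected counts, and the 35 genes took 0.194% to 0.230% of them. Trp53inp2, also known as Dor, had 138 and 134 CPM (counts scaled to library size) in the Dor WT pair and 105 and 107 in the Dor cKO pair (log2 fold change -0.36, SE 0.04, edgeR adjusted p = 2.73e-08). Which exons were deleted is not stated in the sources used here. Markers that define the tissue were present, with 6 oligodendrocyte genes summing to between 16727 and 29319 CPM and 6 astrocyte genes to between 13349 and 14626 CPM per library.

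The vascular genes did not shift as a block. Of 34 genes tested, 11 rose and 5 fell in Dor cKO at an adjusted p under 0.05 (edgeR quasi-likelihood test), with 18 left uncalled. Among all 16751 genes tested, 27.7% were called, 14.3% higher and 13.4% lower. Of the 21 endothelial genes, 7 rose, 2 fell and 12 were not called. Their median log2 fold change (Dor cKO minus Dor WT) was 0.05. Of the 13 mural genes tested, 4 rose, 3 fell and 6 were not called, and their median was 0.11. The median over all tested genes was -0.00362. The endothelial median turned to -0.0516 after correction for length and GC, and leaving out 1 library gave 0.0127 (Dor cKO 1) to 0.19 (Dor WT 2). The mural median turned to -0.00532 with limma on TPM, the length-corrected level, and leaving out 1 library gave 0.0312 (Dor WT 1) to 0.20 (Dor WT 2).

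Calls followed abundance, as they did over all genes. Of 9 tested members with a mean over 50 CPM, 8 were called, against 53.7% of the 4553 genes at that level. Of 16 members between 10 and 50 CPM, 7 were called, against 27.2% of genes. Of 9 members under 10 CPM, 1 was called, against 9.09% of genes. An edgeR likelihood ratio test with the coefficient of variation between libraries fixed at 0.1 cost 13 of the 16 calls. Those for Atp13a5, Mfsd2a and Myh11 were left. The common estimate was 0.0348, and the test changed along with the coefficient. That setting called 9.52% of all genes, 4.2% higher and 5.32% lower. DESeq2 called 17.4% of all genes (9.19% higher, 8.26% lower) and dropped 4 of the 16 members. Limma on log2(TPM + 1) called 8.29% (3.98% higher, 4.31% lower) and dropped 11, and a minimum fold change of 1.2 called 7.47% (3.44% higher, 4.03% lower) and dropped 10. Without Dor WT 1 or Dor WT 2, 13.5% and 13.5% of genes were called higher and 12.3% and 12.5% lower. Without Dor cKO 1 or Dor cKO 2, 10.3% and 10.1% were called higher and 9.63% and 9.63% lower, and without Dor cKO 1 the count of mural genes called lower went from 3 to 1.

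**Figure D1:**
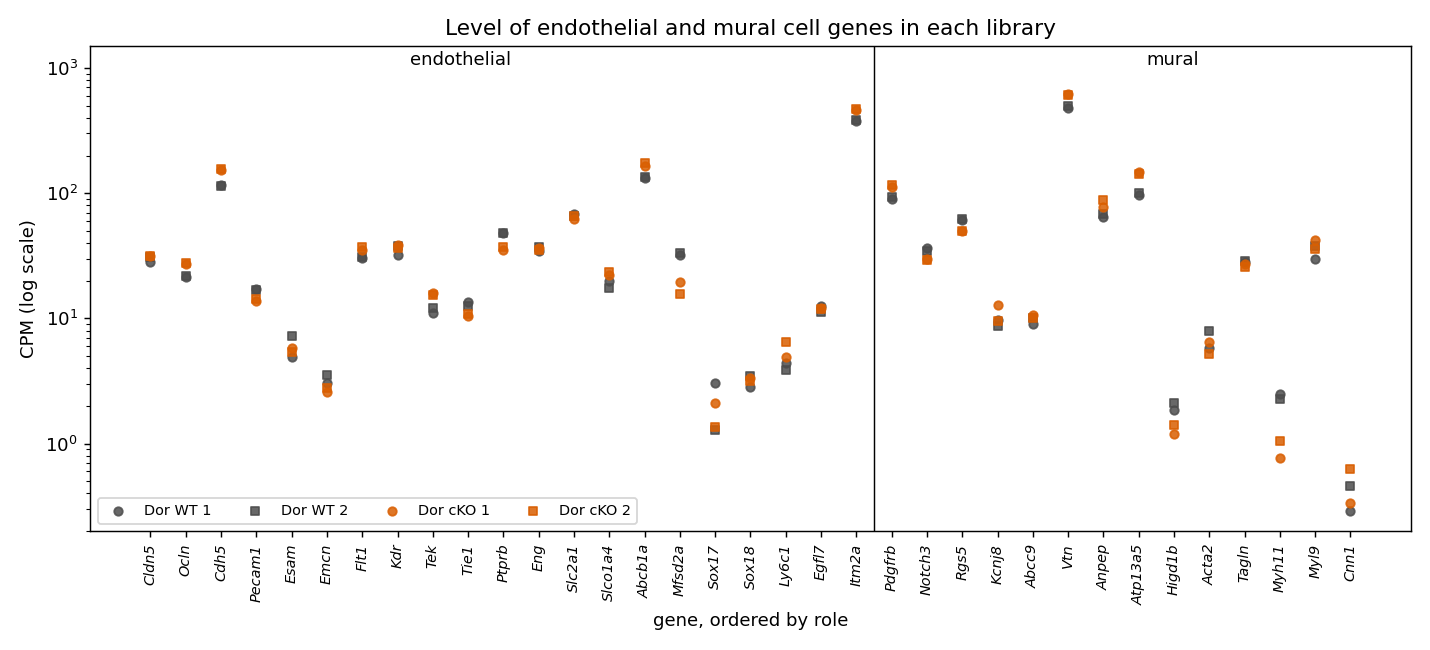
CPM on a log axis for each of the 35 genes in the 4 libraries, with genes ordered by role and 1 point per library. The levels span from 0.288 CPM for Cnn1 to 618 CPM for Vtn, and points of the same group lie close together for the abundant genes.

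Levels per length were set by a few genes. Vtn, which encodes the matrix protein vitronectin, came first with a mean of 554 TPM, followed by Itm2a, which encodes a transmembrane protein of the BRICHOS family, with 411 TPM. Myl9, Cdh5, Abcb1a and Atp13a5 followed with 65.1, 52.4, 46.2 and 44.1 TPM. Cldn5, which encodes the main claudin of the barrier, had a mean of 38.1 TPM. Cnn1 and Myh11, genes of mature smooth muscle, came last with 0.830 and 0.380 TPM. Summed over the 21 endothelial genes the level was 679 and 698 TPM in Dor WT and 776 and 795 TPM in Dor cKO. Without Itm2a the endothelial sum was 309 and 321 TPM in Dor WT and 333 and 342 TPM in Dor cKO. The mural sum was 714 and 758 TPM in Dor WT and 891 and 878 TPM in Dor cKO, and without Vtn it was 232 and 252 TPM against 274 and 265 TPM. Each of these sums was higher in both Dor cKO libraries than in both Dor WT libraries. The sums without Itm2a or Vtn still held other abundant genes that rose. Mean TPM, Dor WT first, was 44.8 against 60.0 for Cdh5, 40.8 against 51.5 for Abcb1a and 35.7 against 52.5 for Atp13a5. The sums therefore do not show a rise across the genes of either list. By role, sums of junction, other surface and secreted, and pericyte genes were also higher in both Dor cKO libraries. For the 4 barrier transporter genes the TPM sums overlapped between the groups (114 and 120 for Dor WT, 116 and 118 for Dor cKO). On CPM the sums of these genes did not overlap, at 251 and 252 for Dor WT against 270 and 279 for Dor cKO. Sums of receptor (46.2 and 49.5 against 49.1 and 48.4 TPM), transcription factor and contractile genes overlapped on both scales. In whole tissue, more cells of a type, more RNA per cell and RNA from other cells cannot be told apart.

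Among the junction and adhesion genes of the endothelium, 2 of 6 rose and 4 were not called. The share over all tested genes was 14.3% called higher and 13.4% lower. Cdh5 (chromosome 8, 104101625 to 104144511 on GRCm38), which encodes VE-cadherin of the adherens junction, had 116 and 115 CPM in the Dor WT pair and 153 and 155 in the Dor cKO pair. The groups were far apart relative to their spread, and Cdh5 was 1.33-fold higher (log2 fold change 0.41, SE 0.04, edgeR adjusted p = 3.69e-10). Ocln, which encodes the tight junction protein occludin, had 21.5 and 21.8 CPM in the Dor WT pair and 27.3 and 27.7 in the Dor cKO pair. Ocln was 1.27-fold higher (log2 fold change 0.35, SE 0.09, adjusted p = 0.00288).

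The other junction genes did not pass. Cldn5 had 28.2 and 31.1 CPM in the Dor WT pair and 31.6 and 31.7 in the Dor cKO pair, a log2 fold change of 0.09 with a 95% interval of -0.07 to 0.25. The interval leaves out a rise of the size seen for Cdh5. Pecam1, which encodes the adhesion molecule CD31, had 17.04 and 16.99 CPM in the Dor WT pair and 13.8 and 14.3 in the Dor cKO pair. Its groups did not overlap, and its log2 fold change of -0.28 (SE 0.11) had an adjusted p of 0.0691, or 0.0491 with total count scaling. Esam, an adhesion molecule of tight junctions, and Emcn, the sialomucin of capillary and venous endothelium, lay between 2.57 and 7.23 CPM, with log2 fold changes of -0.13 (SE 0.20) and -0.30 (SE 0.27).

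The receptor genes went both ways. Tek, which encodes the angiopoietin receptor Tie2, had 10.995 and 12.02 CPM in the Dor WT pair and 16.0 and 15.4 in the Dor cKO pair, 1.36-fold higher (log2 fold change 0.44, SE 0.12, edgeR adjusted p = 0.00592). Flt1, a receptor that binds vascular endothelial growth factor (VEGF) and limits its action, had 30.1 and 30.8 CPM in the Dor WT pair and 35.5 and 37.5 in the Dor cKO pair (log2 fold change 0.26, SE 0.07, adjusted p = 0.00906). Ptprb, which encodes the endothelial phosphatase VE-PTP that acts on Tie2 and associates with VE-cadherin, had 47.8 and 48.4 CPM in the Dor WT pair and 35.4 and 37.4 in the Dor cKO pair. Ptprb was 1.32-fold lower (log2 fold change -0.40, SE 0.07, adjusted p = 2.25e-05), so the phosphatase gene and the genes of both its partners, Tek and Cdh5, lay on opposite sides. Tek lost its call without Dor cKO 1 (0.41, adjusted p = 0.0631) and under DESeq2 (adjusted p = 0.0539). Flt1 lost its call without Dor cKO 2 (0.22, adjusted p = 0.121) and under DESeq2 (adjusted p = 0.086).

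Kdr, the main signalling receptor for VEGF, had 32.3 and 37.6 CPM in the Dor WT pair and 38.2 and 36.6 in the Dor cKO pair, with overlapping groups and a log2 fold change of 0.09 (95% interval -0.07 to 0.25). Eng, a co-receptor of the transforming growth factor beta family, ranged from 34.5 to 36.9 CPM over the 4 libraries, with a log2 fold change of 0.0089 (95% interval -0.14 to 0.16). Tie1, the orphan partner of Tie2, had 13.5 and 12.5 CPM in the Dor WT pair and 10.5 and 10.8 in the Dor cKO pair. Its groups did not overlap, and its log2 fold change of -0.29 (SE 0.13) had an adjusted p of 0.104, or 0.0428 with the length and GC trend removed. Eng and Fpgs share exon sequence on opposite strands, and Fpgs held 1320 counts over the 4 libraries. The sources used here do not state whether counting used the strand.

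Of the 4 barrier transporter genes, 2 rose, 1 fell and 1 did not pass, beside 14.3% of all tested genes called higher and 13.4% lower. Abcb1a, which encodes the efflux pump P-glycoprotein, had 131 and 135 CPM in the Dor WT pair and 165 and 174.5 in the Dor cKO pair, 1.27-fold higher (log2 fold change 0.35, SE 0.04, edgeR adjusted p = 8.95e-09). Abcb1b is a close copy, and the posterior SD of the Abcb1a count, which reflects shared reads, reached 2.48 counts in a library. Slco1a4, an organic anion transporter gene, had 19.8 and 17.5 CPM in the Dor WT pair and 22.2 and 23.3 in the Dor cKO pair (log2 fold change 0.29, SE 0.10, adjusted p = 0.0272). Slco1a4 lost its call under DESeq2 (adjusted p = 0.165). It also lost it on leaving out Dor WT 2 (adjusted p = 0.234), Dor cKO 1 (adjusted p = 0.0746) or Dor cKO 2 (adjusted p = 0.187).

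Mfsd2a (chromosome 4, 122946850 to 122961188) showed the largest fall among the endothelial genes. It encodes the carrier of lysophosphatidylcholine with docosahexaenoic acid, which also holds down transcytosis in barrier endothelium. Mfsd2a had 31.9 and 33.1 CPM in the Dor WT pair and 19.6 and 15.6 in the Dor cKO pair, 1.85-fold lower (log2 fold change -0.89, SE 0.10, edgeR adjusted p = 1.92e-08). The Dor cKO libraries were both far below the Dor WT libraries and differed more from each other than the Dor WT libraries did. Its log2 fold change was between -1.06 and -0.73 in all alternatives, and its adjusted p was 0.0547 with limma on log2(TPM + 1). Slc2a1, the glucose transporter gene GLUT1, had 68.0 and 66.2 CPM in the Dor WT pair and 62.7 and 66.0 in the Dor cKO pair, a log2 fold change of -0.06 (95% interval -0.17 to 0.0528).

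Among the remaining endothelial genes, Itm2a rose and 4 did not pass. Itm2a (X chromosome, 107397099 to 107403376) had 379 and 386 CPM in the Dor WT pair and 461 and 472 in the Dor cKO pair, 1.22-fold higher (log2 fold change 0.29, SE 0.02, edgeR adjusted p = 4.23e-11). Ly6c1, a surface protein gene of capillary endothelium, had 4.37 and 3.87 CPM in the Dor WT pair and 4.95 and 6.45 in the Dor cKO pair, with a log2 fold change of 0.47 (SE 0.21, adjusted p = 0.0971). Egfl7, which encodes a secreted endothelial factor, ranged from 11.2 to 12.6 CPM with overlapping groups, and shares exon sequence with Agpat2 on the opposite strand (1205 counts). The transcription factor genes Sox17, known from arterial endothelium, and Sox18 had at most 3.05 and 3.45 CPM. Their 95% intervals, -1.10 to 0.49 and -0.48 to 0.57, are wide, and a change of the size seen for Cdh5 was not detectable at this depth.

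**Figure D2:**
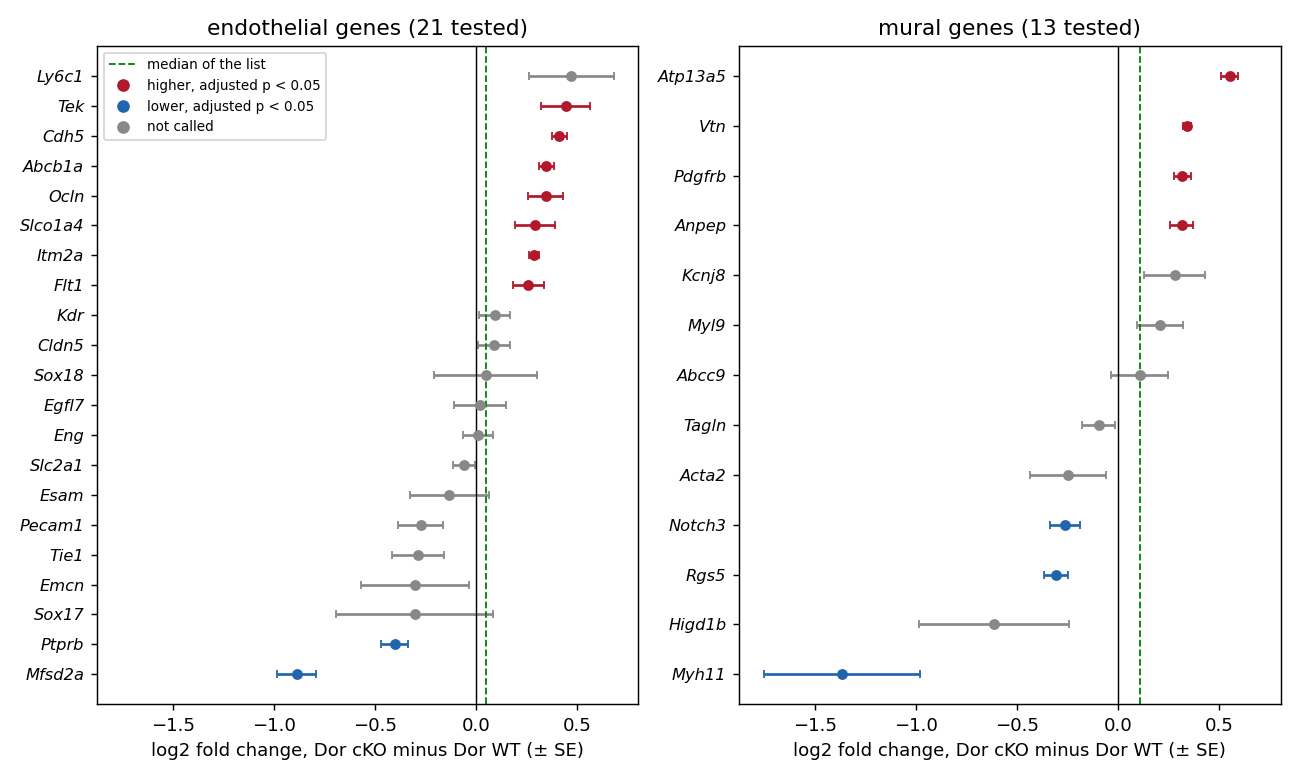
Log2 fold change, Dor cKO minus Dor WT, with its SE for the 21 endothelial and 13 mural genes tested, with the median of each list as a dashed line. Genes called higher and lower stand on both sides of 0 in both panels, from Mfsd2a (-0.89) to Tek (0.44) among called endothelial genes and from Myh11 (-1.37) to Atp13a5 (0.55) among called mural genes.

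Of the 9 pericyte genes, 4 rose, 2 fell and 3 were not called, beside 14.3% of all tested genes called higher and 13.4% lower. Among genes with a mean over 50 CPM, 53.7% were called. The median log2 fold change of the 9 genes was 0.28. It was 0.0601 when Dor cKO 1 was left out. Atp13a5 (chromosome 16, 29231851 to 29378732), which encodes a transport ATPase used as a marker of brain pericytes, had 96.7 and 101 CPM in the Dor WT pair and 148 and 142 in the Dor cKO pair. It was 1.47-fold higher (log2 fold change 0.55, SE 0.04, edgeR adjusted p = 6.49e-12), and its call held in all 15 alternatives. Vtn (chromosome 11, 78499091 to 78502324) had 476 and 496 CPM in the Dor WT pair and 618 and 614 in the Dor cKO pair, 1.27-fold higher (log2 fold change 0.34, SE 0.02, adjusted p = 3.54e-13).

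Pdgfrb, the receptor by which pericytes respond to endothelial platelet-derived growth factor, had 90.7 and 93.2 CPM in the Dor WT pair and 113 and 117 in the Dor cKO pair (log2 fold change 0.32, SE 0.04, edgeR adjusted p = 1.03e-06). Anpep, which encodes the aminopeptidase CD13, had 64.4 and 68.8 CPM in the Dor WT pair and 77.5 and 88.4 in the Dor cKO pair (log2 fold change 0.31, SE 0.06, adjusted p = 1.42e-04). On TPM, Anpep had 32.6 and 33.9 in the Dor WT pair and 34.2 and 44.5 in the Dor cKO pair. Its call was lost with limma on log2(TPM + 1) (0.22, adjusted p = 0.367). Pdgfrb and Anpep are also known from fibroblasts. Markers of other cells were read beside 14.3% of all tested genes called higher and 13.4% called lower. Of 11 fibroblast markers, 10 rose and 0 fell, and none of them was at 0. Their summed level was 7309 and 7313 CPM in the Dor WT pair and 9101 and 9147 in the Dor cKO pair. Of 8 macrophage and microglia markers, 6 rose and 0 fell, with sums of 448 and 451 CPM in the Dor WT pair and 575 and 585 in the Dor cKO pair. Of 3 lymphatic endothelial markers tested, 1 rose and 1 fell. Of 6 astrocyte markers, 5 rose and 1 fell, with sums of 13355 and 13349 CPM in the Dor WT pair and 14606 and 14626 in the Dor cKO pair. Of 5 red blood cell markers, 0 rose and 2 fell, with sums of 580.3 and 607 CPM in the Dor WT pair and 558 and 565 in the Dor cKO pair. The part of these cells in the rises of the vascular genes was not tested.

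Rgs5 and Notch3 went against these rises. Rgs5, a regulator of G protein signalling that is widely used as a pericyte marker, had 60.7 and 62.7 CPM in the Dor WT pair and 49.8 and 49.9 in the Dor cKO pair, 1.24-fold lower (log2 fold change -0.31, SE 0.06, edgeR adjusted p = 1.42e-04). Notch3, the receptor that maintains mural cells, had 36.6 and 34.7 CPM in the Dor WT pair and 29.8 and 29.5 in the Dor cKO pair (log2 fold change -0.26, SE 0.08, adjusted p = 0.00865). Notch3 lost its call under DESeq2 (adjusted p = 0.0851). Leaving out Dor WT 1, Dor cKO 1 or Dor cKO 2 gave adjusted p values of 0.056, 0.054 and 0.0676 for Notch3. The genes that fell stood beside a fall of all 6 oligodendrocyte markers, whose sum was 29319 and 29188 CPM in the Dor WT pair and 16809 and 16727 in the Dor cKO pair. Whether part of the Ptprb, Mfsd2a, Rgs5 or Notch3 signal comes from that lineage was not tested.

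Kcnj8 and Abcc9 encode the pore and the regulatory subunit of the potassium channel of pericytes that senses ATP. Kcnj8 had 9.73 and 8.70 CPM in the Dor WT pair and 12.8 and 9.49 in the Dor cKO pair, and Abcc9 ranged from 9.04 to 10.7 CPM. The groups overlapped for both, with log2 fold changes of 0.28 (95% interval -0.0322 to 0.59) and 0.11 (95% interval -0.18 to 0.40). Higd1b, a pericyte marker of the hypoxia-induced domain family, had 1.84 and 2.12 CPM in the Dor WT pair and 1.19 and 1.40 in the Dor cKO pair. Its groups did not overlap, and its log2 fold change of -0.62 (SE 0.37) had an adjusted p of 0.242.

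Of the 5 smooth muscle contractile genes, 1 fell, 3 did not pass and 1 was too low to test. The share over all tested genes was 14.3% called higher and 13.4% lower. Myh11, the smooth muscle myosin heavy chain gene, had 43 and 49 counts in the Dor WT pair and 16 and 22 in the Dor cKO pair, or 2.48 and 2.26 CPM against 0.762 and 1.06 CPM. It was 2.58-fold lower (log2 fold change -1.37, SE 0.39, edgeR adjusted p = 0.00752), the largest fold change among the tested members. Myh11 lost its call without Dor cKO 1 (-1.15, adjusted p = 0.0981) and with limma on log2(TPM + 1), where levels under 1 TPM leave little change (-0.35, adjusted p = 0.192).

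None of the other contractile genes tested was called, and their difference from Myh11 was not tested. Acta2, the smooth muscle actin gene, had 5.81 and 7.87 CPM in the Dor WT pair and 6.43 and 5.15 in the Dor cKO pair, with overlapping groups and a log2 fold change of -0.25 (95% interval -0.64 to 0.14). Tagln, which encodes the actin binding protein SM22, had 27.98 and 28.7 CPM in the Dor WT pair and 27.3 and 25.7 in the Dor cKO pair (log2 fold change -0.10, SE 0.08). Its exons overlap those of Pcsk7 on the opposite strand, which held 2251 counts over the 4 libraries. Myl9, a myosin regulatory light chain gene, had 29.8 and 37.8 CPM in the Dor WT pair and 42.6 and 36.0 in the Dor cKO pair. Its groups overlapped (log2 fold change 0.21, SE 0.11, adjusted p = 0.216), and it was called higher without Dor WT 2 (0.40, adjusted p = 1.63e-04) and with no low-count filter (adjusted p = 0.0245). Cnn1, the calponin gene of smooth muscle, had 5, 10, 7 and 13 counts in Dor WT 1, Dor WT 2, Dor cKO 1 and Dor cKO 2 and was not tested. Of 7 skeletal muscle markers, 3 could be tested, and the sum of all 7 was between 4.49 and 6.41 CPM per library.

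Sequences before the gene start are shown for 2 members that rose and are known from different cells, an endothelial receptor gene and a pericyte gene, to set ETS cores beside the values, since endothelial genes are known targets of ETS factors. The 250 bases before the start were taken from RefSeq on GRCm38.p6 at chr5:147726012-147726261 (Flt1) and chr16:29378733-29378982 (Atp13a5), both on the minus strand. They are written 5′ to 3′ in the direction of the gene, with AGGAAG or CGGAAG on either strand in capitals.
Flt1: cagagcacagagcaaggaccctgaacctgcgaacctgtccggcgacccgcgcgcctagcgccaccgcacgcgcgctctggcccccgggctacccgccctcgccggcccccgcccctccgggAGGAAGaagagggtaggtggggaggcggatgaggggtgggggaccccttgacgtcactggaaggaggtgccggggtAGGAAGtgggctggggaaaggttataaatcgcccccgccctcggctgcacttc
Atp13a5: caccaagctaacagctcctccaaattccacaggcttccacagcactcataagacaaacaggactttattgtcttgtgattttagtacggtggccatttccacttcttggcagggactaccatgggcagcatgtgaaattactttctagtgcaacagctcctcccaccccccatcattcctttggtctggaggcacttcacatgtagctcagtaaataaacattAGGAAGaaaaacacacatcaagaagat

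The Flt1 window held 2 ETS cores, 129 and 53 bases before the start, and the Atp13a5 window held 1, at 27 bases. Contractile genes are known targets of serum response factor at CArG boxes. With 1 G or C allowed inside the box, the Acta2 window held 2, 84 and 34 bases before the RefSeq start, and the Myl9 window held 2, at 161 and 99 bases, of which 1 was the strict form. A window was found for 25 of the 35 members, 29 windows in all. An ETS core stood in 10 of 19 endothelial and 1 of 10 mural windows (that of Atp13a5), against 39.2% of the 32817 windows of all genes. The relaxed CArG box stood in 5 of 19 endothelial and 2 of 10 mural windows (those of Acta2 and Myl9), against 8.6% of all windows. The strict box stood in 0 and 1, against 1.47%. The mural windows described are therefore the only mural ones with a match. These matches describe the sequence and are not evidence of binding.

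Other vascular genes were read from 9 further lists. Their counts stand beside 14.3% of all tested genes called higher and 13.4% called lower. Among genes with a mean over 50 CPM, 53.7% were called in either direction. Of 17 vascular ligand genes, 6 rose and 0 fell, with a median log2 fold change of 0.12. Tgfb2 rose by 0.19 (SE 0.03), Tgfb1 by 0.32 (SE 0.08) and Wnt7b, a Wnt ligand that induces the barrier, by 0.44 (SE 0.08). Angpt2, which encodes a ligand of the Tek product and was named after its values were seen, had 20.2 and 19.2 CPM in the Dor WT pair and 26.8 and 25.6 in the Dor cKO pair (log2 fold change 0.41, SE 0.09, edgeR adjusted p = 7.64e-04). Vegfa, which encodes the ligand of Kdr and Flt1, was also named after its values were seen and had 50.7 and 52.6 CPM in the Dor WT pair and 47.7 and 49.2 in the Dor cKO pair (adjusted p = 0.296).

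Of 19 other vascular receptor and partner genes, 10 rose and 3 fell, with a median of 0.18. Adgra2, the co-receptor for Wnt7 signals in brain endothelium, had 197 and 201 CPM in the Dor WT pair and 277 and 267 in the Dor cKO pair and rose by 0.45 (SE 0.03, edgeR adjusted p = 5.32e-13). Tgfbr2 rose by 0.47 (SE 0.03) and the Wnt co-receptor gene Lrp6 by 0.21 (SE 0.03). The 3 that fell, named after their values were seen, were Aplnr, the apelin receptor gene (-0.38, SE 0.13, adjusted p = 0.028), Tspan12, which encodes a partner of the receptor Fzd4 (-0.22, SE 0.07, adjusted p = 0.0224), and Notch1 (-0.16, SE 0.05, adjusted p = 0.0243). All 3 lost the call under DESeq2, with adjusted p values of 0.154, 0.142 and 0.158. Aplnr lost it without Dor WT 2 (-0.12, adjusted p = 0.636), Dor cKO 1 (adjusted p = 0.164) or Dor cKO 2 (adjusted p = 0.111). Tspan12 lost it without Dor WT 1 (-0.12, adjusted p = 0.308), Dor cKO 1 (adjusted p = 0.128) or Dor cKO 2 (adjusted p = 0.101), and Notch1 without Dor WT 2 (adjusted p = 0.205) or Dor cKO 2 (adjusted p = 0.292). Of 30 other endothelial identity and junction genes, 7 rose and 2 fell, with a median of 0.06, near that of the 21 members. Bsg rose by 0.23 (SE 0.02), and the junction scaffold genes Tjp1 and Cgnl1 rose by 0.26 (SE 0.02) and 0.34 (SE 0.03). The 2 that fell were named after their values were seen. Adgrl4, an adhesion receptor gene of endothelium, had 16.2 and 16.9 CPM in the Dor WT pair and 11.5 and 11.5 in the Dor cKO pair (log2 fold change -0.53, SE 0.12, edgeR adjusted p = 9.76e-04). Jam2, a junctional adhesion molecule gene, had a log2 fold change of -0.14 (SE 0.04, adjusted p = 0.00468), and its call was lost without Dor cKO 2 (adjusted p = 0.0717) and under DESeq2 (adjusted p = 0.0646).

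Of 7 venous genes, 6 rose and 0 fell, with a median of 0.46, and of 6 arterial genes tested 1 rose and 1 fell, with a median of -0.17. The difference between these lists was not tested. Ephb4, the receptor that marks veins, had 69.3 and 68.6 CPM in the Dor WT pair and 98.2 and 92.0 in the Dor cKO pair and rose by 0.46 (SE 0.05, edgeR adjusted p = 1.50e-08). Nr2f2, a transcription factor of venous fate, rose by 0.29 (SE 0.06). Vwf, the von Willebrand factor gene, rose by 0.32 (SE 0.06) on counts, but its difference was 0.0014 with limma on log2(TPM + 1). Efnb2, the arterial ligand of Ephb4, rose by 0.27 (SE 0.05), and Hey1, a Notch target, had a log2 fold change of -0.29 (SE 0.08, adjusted p = 0.0085). The Hey1 call was lost without Dor WT 1 (adjusted p = 0.12) or Dor cKO 1 (adjusted p = 0.0842) and under DESeq2 (adjusted p = 0.0798), with values from -0.37 to -0.20 over all alternatives. Apart from Efnb2 and Hey1, the tested arterial genes were at most 3.05 CPM. Ackr1, Lrg1 and Icam1, which are also induced in inflammation and were named after their values were seen, rose by 1.11 (SE 0.17), 0.91 (SE 0.20) and 0.54 (SE 0.09). All 10 interferon responsive markers rose in the same libraries, with sums of 284 and 281 CPM in the Dor WT pair and 644 and 656 in the Dor cKO pair, and their part in the venous genes was not tested.

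Of 16 other barrier transporter genes, 4 rose and 1 fell, with a median of 0.10. Slc22a8, an organic anion transporter gene of the endothelium that is also known from the arachnoid barrier, had 164 and 161 CPM in the Dor WT pair and 230 and 236 in the Dor cKO pair and rose by 0.52 (SE 0.03, edgeR adjusted p = 6.19e-14). The monocarboxylate transporter gene Slc16a1 rose by 0.30 (SE 0.03) and the amino acid transporter subunit gene Slc3a2 by 0.27 (SE 0.03). The gene that fell, Tfrc, encodes the transferrin receptor and was named after its values were seen. Tfrc had 71.4 and 70.6 CPM in the Dor WT pair and 43.7 and 47.0 in the Dor cKO pair (edgeR adjusted p = 6.57e-10). All 6 oligodendrocyte markers fell in the same libraries, and whether part of the Tfrc signal comes from that lineage was not tested. Of 14 vascular basement membrane genes, 11 rose and 0 fell, with a median of 0.25. Over all tested genes, 14.3% were called higher and 13.4% lower, and 53.7% of those over 50 CPM were called. Sparc, Lamc1 and Nid1 rose by 0.31 (SE 0.01), 0.35 (SE 0.02) and 0.25 (SE 0.02).

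Of 15 other pericyte genes, 6 rose and 1 fell, with a median of 0.24. The transcription factor genes Zic1 and Foxc1 rose by 0.39 (SE 0.03) and 0.44 (SE 0.06), and the sphingosine phosphate receptor gene S1pr3 by 0.24 (SE 0.03). Zic1 and Foxc1 are also known from the meninges. The gene that fell, Mcam, encodes the adhesion molecule CD146 of mural and endothelial cells and was named after its values were seen. Mcam had 53.7 and 53.6 CPM in the Dor WT pair and 31.4 and 31.9 in the Dor cKO pair (log2 fold change -0.76, SE 0.07, edgeR adjusted p = 2.60e-10), a larger change than that of any of the 3 genes named above. The largest rise of this list was that of Ifitm1, also named after its values were seen. Ifitm1 had 40.9 and 40.2 CPM in the Dor WT pair and 60.9 and 62.6 in the Dor cKO pair (log2 fold change 0.61, SE 0.06, edgeR adjusted p = 4.96e-09). All 10 interferon responsive markers rose in the same libraries, and whether the Ifitm1 rise belongs with theirs was not tested. Of 19 other smooth muscle genes tested, 7 rose and 2 fell, with a median of 0.12. Flna, Cald1 and Tpm1 rose by 0.23 (SE 0.02), 0.21 (SE 0.03) and 0.12 (SE 0.03), and these genes are active in many cell types. Mylk, a myosin kinase gene named after its values were seen, showed the largest rise of the list. Mylk had 36.8 and 36.0 CPM in the Dor WT pair and 56.4 and 56.3 in the Dor cKO pair (log2 fold change 0.63, SE 0.06, edgeR adjusted p = 4.89e-09). The 2 that fell were named after their values were seen. Ppp1r14a, which encodes an inhibitor of myosin phosphatase and is also known from oligodendrocytes, had 13.4 and 12.8 CPM in the Dor WT pair and 6.48 and 6.94 in the Dor cKO pair (log2 fold change -0.96, SE 0.14, edgeR adjusted p = 4.13e-06). Actn1, an actin crosslinking protein gene, had a log2 fold change of -0.26 (SE 0.07, adjusted p = 0.00561), and its call was lost without Dor cKO 2 (adjusted p = 0.0807) and under DESeq2 (adjusted p = 0.0643). The Tpm1 call was lost without Dor WT 2 (adjusted p = 0.0559) or Dor cKO 2 (adjusted p = 0.0643) and under DESeq2 (adjusted p = 0.055).

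**Figure D3:**
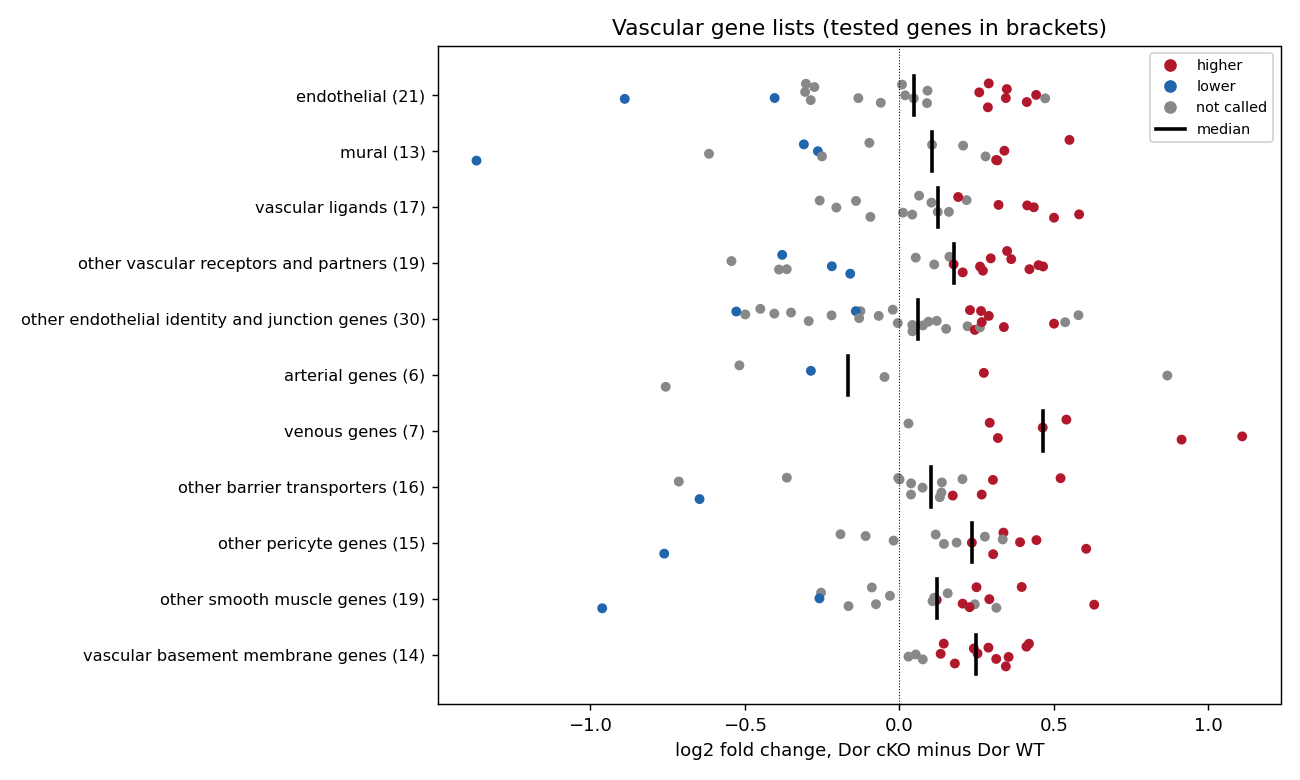
Log2 fold change, Dor cKO minus Dor WT, of each tested gene in the endothelial and mural lists and in 9 further vascular lists, with the median of each list as a bar. The vascular ligand, venous and basement membrane lists hold no gene called lower, with medians of 0.12, 0.46 and 0.25. The endothelial and mural lists hold called genes on both sides of 0.

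The calls for the members are shown by setting in the chart of calls. Atp13a5 was the member called in every setting. Cdh5, Abcb1a and Vtn each lost the call in 1 setting, the one with the coefficient of variation at 0.1.

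**Figure D4:**
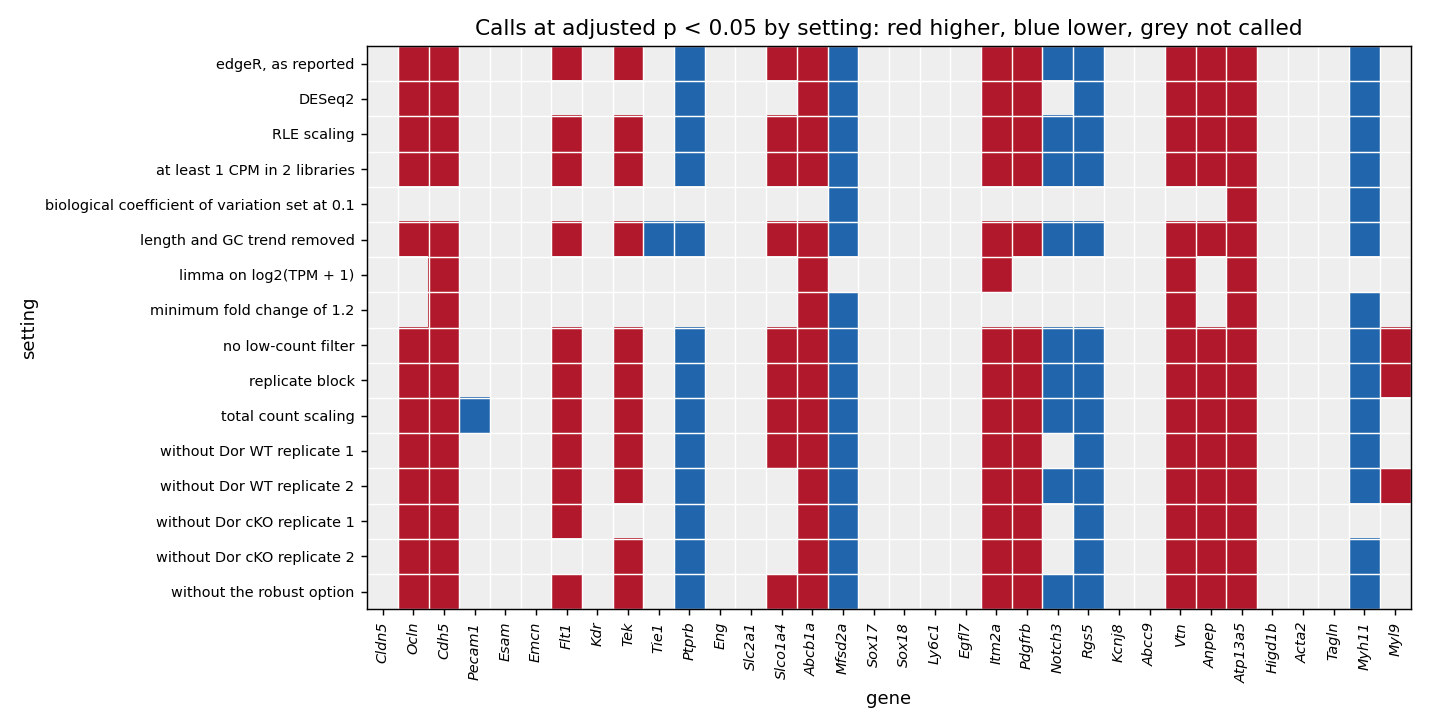
Calls at an adjusted p under 0.05 for the 34 tested members in the reported fit and 15 alternatives, with red for higher, blue for lower and grey for not called. All 16 called members kept their direction, 4 lost the call with DESeq2, 11 under limma on log2(TPM + 1), and 13 at a coefficient of variation of 0.1.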

How the data were processed

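RNA from optic nerves was sequenced in 4 libraries, 2 per genotype. Per the labels, the library kit was stranded; whether counting used the strand was not given. Tools listed in the submitters' processing notes were Trimmomatic 0.36, STAR 2.7.9a and RSEM 1.3.1, with the build GRCm38. Per the file headers, the deposited tables hold expected counts and TPM values made by the authors, with the length and the posterior SD of each count. The deposited counts were rounded, genes were filtered with filterByExpr (minimum count 10, minimum total 15), and 16751 genes were compared with edgeR 4.0.16 (TMM scaling, robust quasi-likelihood test, Benjamini-Hochberg adjustment, threshold 0.05). CPM values use TMM-scaled library sizes. The SE is the size of the log2 fold change divided by the square root of F. Totals set a floor of 3 counts at 0.138 to 0.173 CPM. Symbols and coordinates came from GENCODE M21 and matched 55141 of 55401 identifiers. Steps were tested on simulated data. Alternatives used DESeq2 1.42.0, limma 3.58.1 and other settings given at the end.

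The members and lists were chosen with earlier results of these data known. All members are named, with up to 3 called genes of highest mean CPM per further list, and others are said to be named after their values were seen.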

Additional observations from a re-analysis of the deposited data

How the results depend on the processing

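All 16 called members kept their direction in 15 alternatives; 1 kept its call in all. At a fixed coefficient of variation of 0.1 (edgeR likelihood ratio test), endothelial genes called higher went from 7 to 0 and lower from 2 to 1. Mural genes called higher went from 4 to 1 and lower from 3 to 1, and 3 members of any kind stayed called. Calls over all genes were 703 higher and 891 lower. With DESeq2, endothelial higher was 4, and all genes 1539 higher and 1383 lower against 2399 and 2248. With limma on log2(TPM + 1) the counts were 3 and 0 for endothelial and 2 and 0 for mural genes, and 666 and 722 over all genes. With a minimum fold change of 1.2 they were 2 and 1, 2 and 1, and 576 and 675. The mural median of 0.11 became -0.00532 and the pericyte median of 0.28 became 0.21 with limma. With the length and GC trend removed, an alternative chosen after seeing the data, the endothelial median became -0.0516 and the pericyte median 0.23. The cause was not tested.

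Leaving out each library in turn gave endothelial medians of 0.0127 to 0.19, mural medians of 0.0312 to 0.20, pericyte medians of 0.0601 to 0.27 and contractile medians of -0.28 to -0.0408, with 5 to 7 endothelial and 4 to 5 mural genes called higher, 2 and 2 endothelial and 1 to 3 mural genes called lower, and 1697 to 2267 genes higher and 1613 to 2102 lower over all genes; a lone library was assumed to vary like the other group. The deviations of same-numbered libraries had a correlation of -0.015 across genes, which cannot settle whether the numbers pair them. A replicate block in edgeR called 2562 genes higher and 2409 lower, against 2399 and 2248 without it. Myl9 was among those called higher with the block (adjusted p = 0.0242). Leaving out Mylk and Ifitm1, which were not read in the alternatives, the 40 other vascular genes named kept their direction in the same 15 alternatives. Of these 40, 27 lost the call with the coefficient at 0.1 and 7 with DESeq2. Of 18 uncalled members, 9 changed sign in at least 1 alternative and 3 were called in at least 1. Depth limits the 9 tested members under 10 CPM, whose median SE was 0.256.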
